A study of Glycine max with 3 samples.

Results

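The embryo proper and the seed coat parenchyma of the developing soybean (Glycine max) seed were compared by RNA sequencing, with 1 library for each. Gene models with at least 50 mapped reads in at least 1 of these 2 libraries were taken for comparison, which gave 24363 of the 66210 gene models in the tables. Of these, 14775 reached 50 reads in both libraries, 3158 in the embryo proper library alone and 6430 in the seed coat parenchyma library alone. Both tissues came from cultivar Asgrow A3237, with no mutation, transgene or treatment named for any library. The embryo proper was cut by laser from globular-stage embryos, taken from pods of 0.5 to 1.2 cm, in sections of 6 µm. The seed coat parenchyma was cut from seeds of 6.0 to 7.0 mm at early maturation, in sections of 8 µm and on another microdissection instrument. Tissue, stage, section thickness and instrument changed together and cannot be told apart. The labels do not say how many seeds or plants were pooled, and no library has a replicate. The series' other library, the suspensor of globular-stage embryos of the same cultivar, was not used to choose the gene models.

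The embryo proper gives rise to the shoot, root and cotyledons of the next plant, and at the globular stage its cells are still dividing and beginning to take on tissue identities. The seed coat is maternal tissue that grows from the outer layers of the ovule. Its parenchyma lies on the path by which sugars and amino acids from the mother plant reach the embryo, which has no direct vascular connection to it. The comparison therefore sets a young tissue of the new generation against a later maternal tissue.

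The embryo proper library held 11603055 assigned reads, the seed coat parenchyma library 11894273 and the suspensor library 8365831. The gene models compared took 99.1% of the embryo proper reads, 98.7% of the seed coat reads and 96.4% of the suspensor reads. Levels are given as CPM, reads for each 1000000 reads of a total scaled by TMM (trimmed mean of M-values), whose factors were 0.994 for the embryo proper, 1.21 for the seed coat parenchyma and 0.832 for the suspensor. On this scale the minimum of 50 reads equalled 4.34 CPM for the embryo proper and 3.48 CPM for the seed coat parenchyma, so that the read minimum admitted slightly lower levels from the seed coat. CPM is not corrected for transcript length. A level can be compared between libraries for 1 gene model, whereas the part of a library taken by many gene models also reflects their lengths. The tables pair identifiers with no gene name or function, and none of the 66210 identifiers matched the reference gene table, so marker genes of either tissue could not be checked. No gene sequence could be shown for the same reason.

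More gene models were higher in the seed coat parenchyma than in the embryo proper, and with TMM scaling the excess lay among gene models of low level. A difference was counted at 4-fold or more on the log2(CPM + 1) scale. The added 1 CPM makes differences of low gene models look smaller than they are. Of the 24363 gene models compared, 4822 (19.8%) passed this size towards the seed coat parenchyma and 3356 (13.8%) towards the embryo proper, together 33.6%. These are called seed coat-high and embryo proper-high here. Another 9405 (38.6%) differed by less than 2-fold, and the remaining 6780 lay between 2-fold and 4-fold. The median log2 ratio of embryo proper to seed coat parenchyma was -0.14, with quartiles at -1.56 and 1.16. The outer parts of the distribution reached further on the seed coat side: the 5th percentile was at -3.94 and the 95th at 3.18. The ratio of seed coat-high to embryo proper-high gene models was 1.19 at 2-fold, 1.44 at 4-fold, 1.68 at 8-fold and 2.10 at 32-fold. With unscaled library totals the numbers at 4-fold were 5516 and 2834, with the excess at every level, and under every other scaling tried the seed coat side was also the larger.

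**Figure D1:**
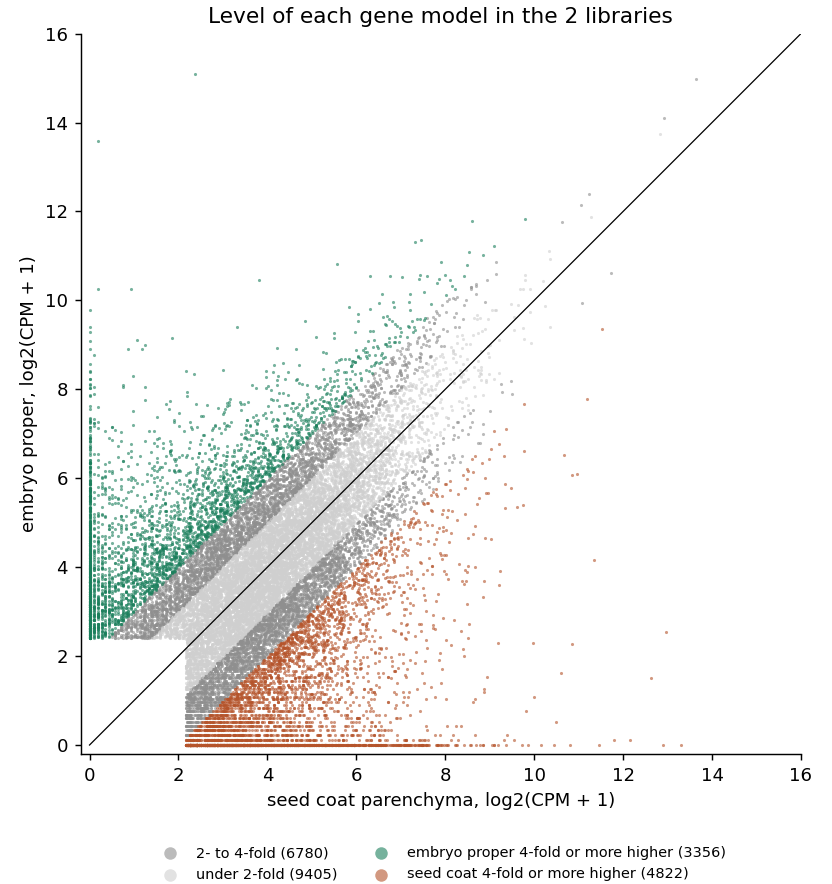
Level of each of the 24363 gene models compared, on the log2(CPM + 1) scale, in the seed coat parenchyma library (horizontal) and the embryo proper library (vertical), with 1 point per gene model and a line of equal levels. The empty corner at the lower left is the read minimum, and the rows of points along both axes are gene models with 0 or very few reads in the other library.

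Counting error was small against most of these differences. The 95% counting interval was taken on the ratio of scaled counts without the added 1 CPM. At low levels this ratio is larger than the one used for calling, so its lower bound passes 4-fold more easily. That bound was at least 4-fold for 3069 of the 3356 embryo proper-high gene models (91.4%). It was so for 4547 of the 4822 seed coat-high gene models (94.3%). Both classes were called from these same counts, which by itself raises these shares. The interval included equal levels for 2805 gene models, all of which differed by under 2-fold. They were 29.8% of the gene models under 2-fold, so with TMM scaling most small differences, too, exceeded counting error between these libraries. This share was not computed with other scalings, under which the median log2 ratio ran from -0.048 (upper-quartile) to -0.41 (unscaled totals). These intervals leave out the variation between seeds, captures and amplifications, which 1 library for each tissue cannot show. At the read minimum the gene models changed little: of the 558 with 50 to 54 reads in the library where they had more, 17.2% were seed coat-high and 10.4% embryo proper-high. Of the 591 just below it, with 45 to 49 reads, the shares were 19.97% and 11.2%.

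The balance between the tissues turned with the level of the gene model. Gene models were binned by their level in whichever library was the higher. Below 10 CPM, 1599 of 6820 gene models (23.4%) were seed coat-high and 710 (10.4%) embryo proper-high. In this bin the read minimum admitted seed coat levels from 3.48 CPM but embryo proper levels only from 4.34 CPM. With a minimum of 5 CPM in 1 of the libraries instead, 4366 seed coat-high and 3261 embryo proper-high gene models remained over all bins. From 30 to 100 CPM the shares were close, at 17.0% and 15.1%. From 100 to 300 CPM the embryo proper side was the larger, with 427 of 1867 (22.9%) against 329 (17.6%), and at 1000 CPM or more it held 32 of 88 against 21. The seed coat-high share thus stayed between 17.0% and 23.9% over all levels, while the embryo proper-high share rose in each bin, from 10.4% to 36.4%. The crossing point depended on scaling. With unscaled totals the seed coat side remained the larger in every bin, but the embryo proper side's part of the 4-fold differences still rose, from 31.1% below 10 CPM to 47.5% at 300 CPM or more, against 30.7% and 61.8% with TMM.

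**Figure D2:**
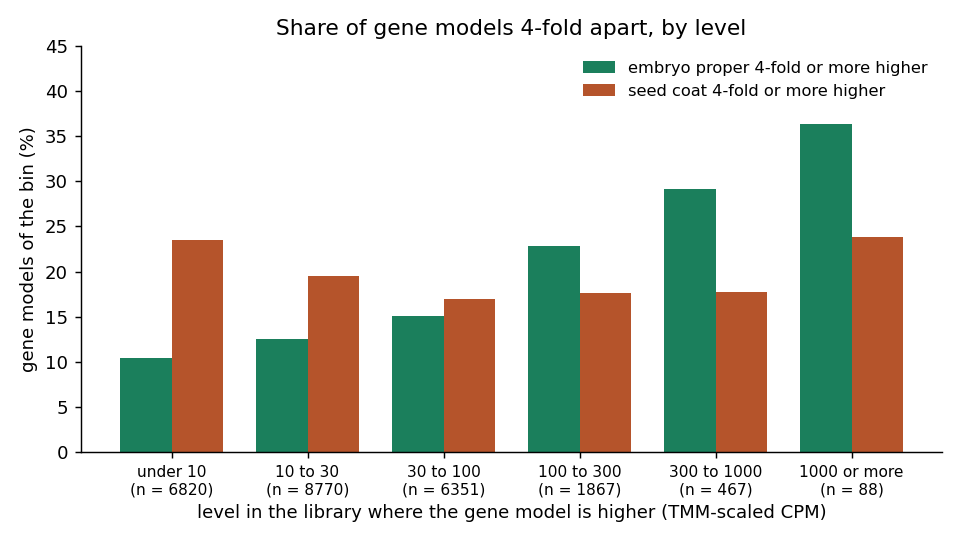
Share of gene models at least 4-fold higher in the embryo proper or in the seed coat parenchyma (vertical, %), by level in the library where the gene model was higher (horizontal, TMM-scaled CPM), with the number of gene models in each bin. The embryo proper share rose from 10.4% to 36.4%, and the seed coat share was 23.4% in the lowest and 23.9% in the highest bin.

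Gene models that were well measured in both tissues showed the opposite balance. Among the 14775 with at least 50 reads in both libraries, 1265 (8.56%) were embryo proper-high and 714 (4.83%) seed coat-high, and 8310 (56.2%) differed by under 2-fold. This balance held with TMM, upper-quartile and DESeq2 scaling, but with unscaled totals the numbers were 877 and 1020, and without the 50 most-read gene models in the totals they were 958 and 942. Asking for 50 reads in both libraries removes the gene models that reached the minimum in 1 library alone. These were 6430 for the seed coat parenchyma and 3158 for the embryo proper, and they were not all silent in the other tissue. Why the balance changed was not tested.

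Within the set measured in both libraries, the gene models with the largest ratios were examined one by one, ranked by the lower bound of their counting interval. Glyma02g13210, on chromosome 2, had 402539 embryo proper reads (34902 CPM), 40732 suspensor reads (5854 CPM) and 60 seed coat reads (4.17 CPM). It had the most reads of any gene model in the embryo proper library, 3.47% of the total, and its embryo proper to seed coat ratio was 8369 (counting interval 6502 to 10967). Glyma17g11630, on chromosome 17, followed with 16264 embryo proper reads (1410 CPM), 763 suspensor reads (110 CPM) and 189 seed coat reads (13.1 CPM). Its ratio was 107 (93.0 to 125). Both were highest in the embryo proper and lowest in the seed coat parenchyma, with the suspensor between.

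On the seed coat side Glyma07g28940, on chromosome 7, had 115258 seed coat reads (8011 CPM), 1501 suspensor reads (216 CPM) and 56 embryo proper reads (4.86 CPM). Only 2 gene models had more reads in the seed coat library, and its seed coat to embryo proper ratio was 1650 (1270 to 2184). Glyma17g01720, on chromosome 17, had 37569 seed coat reads (2611 CPM), 440 suspensor reads (63.2 CPM) and 196 embryo proper reads (17.0 CPM). Its ratio was 154 (134 to 178). For both, the suspensor level again lay between the others.

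Reads of 1 tissue with none in the other were more common on the seed coat side. In the embryo proper library 1807 gene models had 0 reads, 7.42% of those compared and 37.5% of the seed coat-high ones. In the seed coat library 694 had 0 reads, 2.85% of those compared and 20.7% of the embryo proper-high ones. Each passed the read minimum only through the library where it was higher. With 1 CPM added, 50 reads against 0 already gave 5.34-fold for the embryo proper and 4.48-fold for the seed coat. Their place in the classes therefore followed from the rule. The gene models that reached the minimum in 1 library alone were likewise more numerous for the seed coat, 6430 against 3158. The depths of the libraries were close, and 3 reads, taken as the detection floor, stood for 0.260 CPM in the embryo proper library and for 0.209 CPM in that of the seed coat. A count of 0 means not detected at this depth. Of the 1807, 679 had at least 200 reads in the seed coat parenchyma, 153 at least 1000 and 19 at least 5000, and together they took 8.87% of its reads. Of the 694, 241 had at least 200 reads in the embryo proper, 43 at least 1000 and 5 at least 5000, and together they took 2.10% of its reads. Measured against the floor, the median excess was at least 37.9-fold for the 1807 and at least 53.0-fold for the 694. The order of these values rests on TMM scaling, since the median reads were 142 for the 1807 and 127.5 for the 694. With these counts of 0 set at 3 reads, the seed coat-high number became 4656 and the embryo proper-high number stayed at 3356. This outcome was fixed by the settings: 50 reads stood for 4.34 CPM in the embryo proper and for 3.48 CPM in the seed coat. With 1 CPM added, only seed coat-high gene models near that minimum could fall below 4-fold.

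With TMM scaling and a 4-fold difference, the tissue-high gene models took nearly equal shares of the reads of their libraries. Of the embryo proper library, 31.6% (95% Wilson interval 31.60 to 31.66%) fell on embryo proper-high gene models, which made up 3.99% of the seed coat library. Of the seed coat library, 31.4% (31.40 to 31.45%) fell on seed coat-high gene models, which made up 1.39% of the embryo proper library. This equality rested on those settings: the shares were 25.7% and 34.0% with unscaled totals, 60.5% and 44.3% at 2-fold, and 16.5% and 23.7% at 8-fold, embryo proper first. The gene models that differed by under 2-fold took 33.4% of the former library and 37.6% of the latter. The reads were similarly concentrated within both classes. The 139 most-read embryo proper-high gene models (4.14% of the class) made up 50% of the embryo proper share, and the 204 most-read seed coat-high ones (4.23%) made up 50% of the seed coat share. Without its 2 most-read gene models the embryo proper share was 26.9%, and without the 2 most-read on the seed coat side that share was 29.2%. In bulk tissue, fewer cells of a type and less RNA per cell cannot be told apart, so these shares describe the captured RNA pool and not single cells.

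The most-read gene models of the libraries overlapped in part. Each list was chosen by the reads of its own library, which by itself favours gene models high there. Of the 100 with the most reads in each library, 30 were common to both. Of the embryo proper's 100, 46 were embryo proper-high, none was seed coat-high and 21 differed by under 2-fold. Of the seed coat's 100, 51 were seed coat-high, 2 were embryo proper-high and 32 differed by under 2-fold. Over all gene models compared, 13.8% were embryo proper-high, 19.8% seed coat-high and 38.6% under 2-fold. Among the 10 most-read in each library, 3 were shared. They lay on chromosomes 20, 17 and 9 and had 371937, 202016 and 158146 reads in the embryo proper, against 183148, 111118 and 105320 in the seed coat parenchyma. All of them were moderately higher in the embryo proper on the CPM scale, by 2.53-fold, 2.27-fold and 1.87-fold. They were also abundant in the suspensor, with 358078, 153837 and 94915 reads. On the CPM scale the suspensor levels were 51464, 22110 and 13641, beside 32248, 17516 and 13712 in the embryo proper. Those on chromosomes 20 and 17 were thus highest in the suspensor, and the levels of that on chromosome 9 were close.

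The suspensor library, which had no part in choosing the gene models, was then set beside both. For embryo proper-high gene models the median suspensor level was 11.4 CPM, beside 1.67 CPM in the seed coat and 26.8 CPM in the embryo proper itself. For seed coat-high gene models it was 0.575 CPM, beside 16.7 CPM in the seed coat itself and 0.260 CPM in the embryo proper. The median suspensor level was 14.5 CPM for gene models under 2-fold and 10.6 CPM for those between 2-fold and 4-fold. On the log2 scale the embryo proper-high median was thus closer to the embryo proper than to the seed coat. It was also near the suspensor medians of gene models less than 4-fold apart. The seed coat-high median was near the detection floor, which in this shallower library was 0.431 CPM. No suspensor read was found for 349 of the 3356 embryo proper-high (10.4%) and for 1991 of the 4822 seed coat-high gene models (41.3%). Over all gene models compared it was 3316 of 24363 (13.6%), a value that includes both classes. For gene models under 2-fold it was 434 (4.61%), and for those between 2-fold and 4-fold 542 (7.99%). The embryo proper-high share was thus below the general one but above these, and the seed coat-high share was above all of them. The suspensor was the shallowest library, and it shared stage, section thickness and instrument with the embryo proper, so that these cannot be told apart from kinship of the tissues.

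The spread behind those medians was wide. The quartiles of the suspensor level were 1.15 and 43.2 CPM for embryo proper-high gene models and 0 and 7.76 CPM for seed coat-high ones. Some embryo proper-high gene models were thus almost undetected in the suspensor, while others reached high levels there. At least 50 suspensor reads were found for 1910 embryo proper-high gene models (56.9%) and for 1265 seed coat-high gene models (26.2%). The numbers were 6231 (66.3%) for gene models under 2-fold and 3960 (58.4%) for those between 2-fold and 4-fold. The embryo proper-high share was thus no higher than in gene models less than 4-fold apart. Of all suspensor reads, 29.6% fell on embryo proper-high gene models, or 22.3% without the 2 of them with the most suspensor reads. The figure for seed coat-high gene models was 4.76%, or 4.47% without their 2. For gene models under 2-fold it was 33.8%, and for those between 2-fold and 4-fold 28.3%. Only 25 gene models (0.745% of the class) made up 50% of the embryo proper-high share of suspensor reads.

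The suspensor also differed between the gene models found in 1 tissue alone. Of the 1807 with 0 reads in the embryo proper, 1329 (73.5%) had 0 reads in the suspensor too, and 90 (4.98%) had 50 or more. The highest of them reached 54.8 CPM in the suspensor. Of the 694 with 0 reads in the seed coat parenchyma, 157 (22.6%) had 0 reads in the suspensor and 304 (43.8%) had 50 or more, with a maximum of 5977 CPM. Both shares with 0 suspensor reads were above the 13.6% over all gene models compared. Both shares with 50 or more were below the 66.3% of gene models under 2-fold and the 58.4% of those between 2-fold and 4-fold. Among the 107 gene models with a log2 ratio of 6 or more towards the embryo proper, the suspensor median was 88.7 CPM, between 0 CPM in the seed coat and 142 CPM in the embryo proper. Among the 255 with a log2 ratio of 6 or more towards the seed coat, the suspensor median was 0.431 CPM, with 136 CPM in the seed coat and 0 CPM in the embryo proper.

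**Figure D3:**
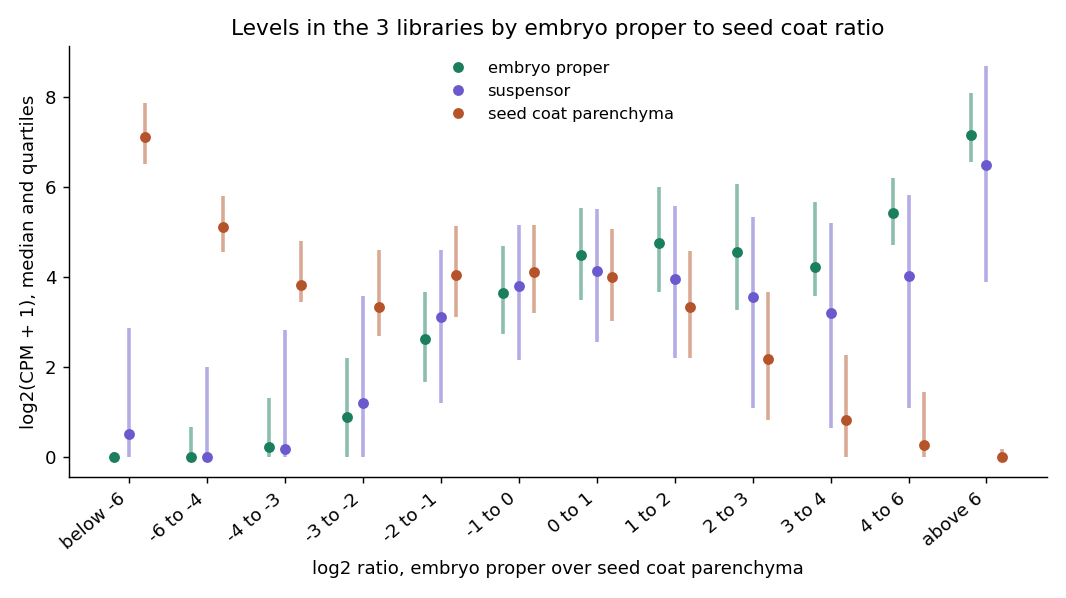
Levels of the gene models compared in the embryo proper, suspensor and seed coat parenchyma libraries (vertical, log2(CPM + 1), points are medians and lines run between the quartiles), by the log2 ratio of embryo proper to seed coat parenchyma (horizontal). The embryo proper and seed coat levels follow from the binning, whereas the suspensor median stayed near 0 in the bins below -3 and reached 88.7 CPM in the highest bin.

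Gene models of both classes were found on all 20 chromosomes, by the chromosome number in the identifier. The embryo proper-high share of the gene models compared ran from 10.9% (chromosome 6) to 15.6% (chromosome 1), with a median of 13.9% over chromosomes. The seed coat-high share ran from 15.8% (chromosome 5) to 22.6% (chromosome 11), with a median of 19.8%. On each chromosome the seed coat-high gene models outnumbered the embryo proper-high ones with TMM scaling. Chromosome 5 was the most balanced, with 189 against 169, and chromosome 6 the least, with 301 against 159. The 68 gene models on unplaced scaffolds were few, with 6 seed coat-high and 13 embryo proper-high.

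Soybean identifiers of this form number gene models along the chromosome, and each chromosome was divided into 10 parts with equal numbers of gene models in that order. The share of gene models that reached the read minimum was highest at the ends, at 45.6% in the first part and 47.2% in the last, and lowest in the middle, at 30.1% in the sixth. The share called did not follow this gradient. The embryo proper-high share lay between 12.5% and 14.5% in all parts, and the seed coat-high share between 18.8% and 20.7%.

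**Figure D4:**
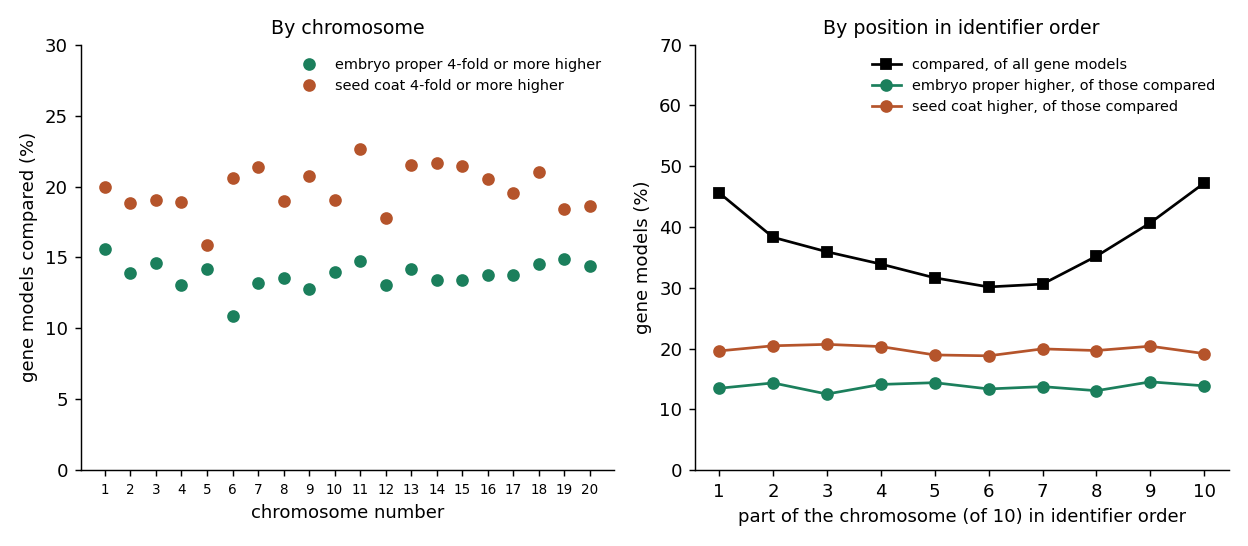
Left, share of the gene models compared that were at least 4-fold higher in the embryo proper or the seed coat parenchyma (vertical, %), by chromosome number (horizontal). Right, share of all gene models that were compared, and shares of those called in each direction (vertical, %), by each of 10 equal parts of the chromosome in identifier order (horizontal); the compared share dips from 45.6% to 30.1% while the called shares stay level.

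Neighbours were then taken in identifier order among the gene models compared, so that identifiers below the read minimum between them were passed over. Such neighbours were in the same class somewhat more often than gene models in general. A seed coat-high gene model was followed by another in 1165 of 4815 pairs (24.2%), against 19.8% of all gene models compared on chromosomes. An embryo proper-high one was followed by another in 526 of 3341 pairs (15.7%), against 13.8%. The seed coat excess narrowed to 21.7% at 2 places apart and 20.8% at 3, and at 5 places the share was 19.8%. On the embryo proper side the share at 2 places or more ran from 12.7% (20 places) to 14.8% (3 places), with 13.2% at 10 places and 14.7% at 50. Counts of near-identical neighbouring copies are uncertain, since it is not known how reads that match several gene models were treated.

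**Figure D5:**
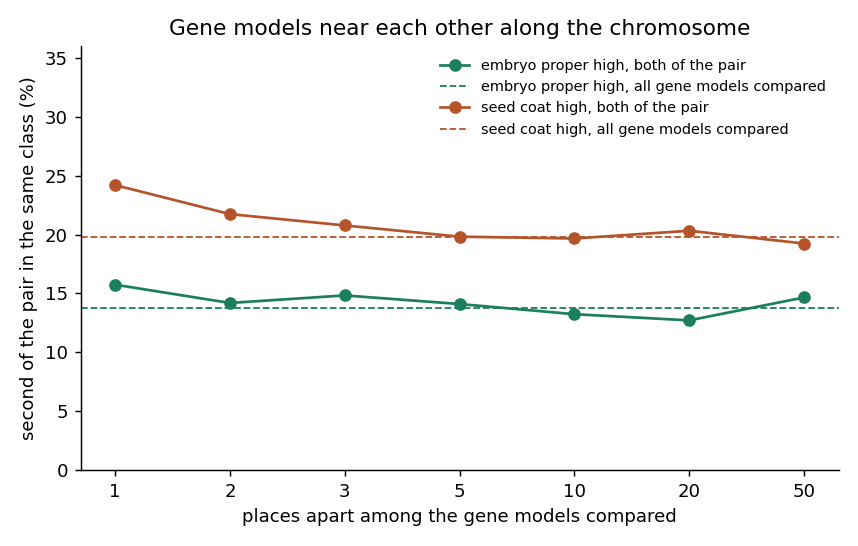
Share of pairs in which a gene model of a class was followed, at the given number of places among the gene models compared, in identifier order (horizontal), by another of the same class (vertical, %), with dashed lines for the share of that class among all gene models compared on chromosomes. The seed coat line starts at 24.2% for pairs 1 place apart and meets its dashed line, 19.8%, at 5 places.

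Runs of such neighbouring gene models in the same class were mostly pairs. On the seed coat side 862 runs of 2 or more held 2027 gene models, 42.1% of the class on chromosomes, and 53 runs had 4 or more members. On the embryo proper side 461 runs held 987 gene models (29.5%), and 8 had 4 or more. The seed coat-high class is also the larger, 19.8% against 13.8% of the gene models compared on chromosomes, and a larger class forms more runs by its size alone. The longest run, on chromosome 1, held 7 seed coat-high gene models within 18 consecutive identifiers. They had 280, 209, 79, 1019, 99, 69 and 60 reads in the seed coat parenchyma and 0 reads in the embryo proper, except for 1 read of the second. In the suspensor 6 of the 7 had 0 reads, and the second had 351. The longest run on the embryo proper side, on chromosome 4, held 5 gene models within 13 identifiers. They had 357, 51, 545, 145 and 56 reads in the embryo proper and 1, 0, 0, 32 and 0 in the seed coat parenchyma. In the suspensor they had 35, 0, 124, 19 and 0 reads.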

How the data were processed

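The deposited tables give, per the file headers, a whole-number count of mapped reads for each gene model, and these were used as raw counts. The submitters' processing notes name Bowtie. Neither its version nor the build, annotation release, strand setting or treatment of multiply mapping reads is given in the sources used here, so counts of close paralogs and of overlapping gene models are uncertain. Per the labels' protocols, 3 to 5 ng of total RNA was amplified as cDNA, 15 further PCR cycles followed adapter ligation, and reads were single-end of 76 nt. No molecular identifiers were used, so that intervals and floors cover counting error only.

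Counts were scaled with edgeR 4.0.16 TMM factors over the 3 libraries (R 4.3.3). No p-value or standard error was computed, since each group has 1 library. Ratios are of scaled counts, with 95% Clopper-Pearson intervals, and shares have 95% Wilson intervals. Named gene models are the 2 in each direction with the largest lower interval bound among those with 50 or more reads in both libraries. The 30 lists by product name could not be applied because 0 of the 66210 identifiers matched the 59048 genes of the reference table. The gene models, lists and rules were chosen with earlier results of these data known. The steps were tested on simulated data. Alternatives were other scalings (including DESeq2 1.42.0 size factors), read minimums, fold sizes and added constants, the interval bound and thinning. Python 3.11.15, NumPy 2.4.6, pandas 2.3.3, SciPy 1.17.1 and matplotlib 3.10.9 were used.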

Additional observations from a re-analysis of the deposited data

How the results depend on the processing

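No paired analysis was possible because each tissue has 1 library. The alternatives were listed at the outset, with earlier results of these data known, except a minimum of 5 CPM in place of 50 reads, the removal of unplaced scaffolds, counting runs of neighbours once, setting counts of 0 at 3 reads, leaving out the 2 most-read gene models in the suspensor, and the scalings within level bins, which were chosen after seeing the data. Numbers of 4-fold gene models are given as embryo proper-high and seed coat-high. They were 2100 and 2691 with at least 200 reads, 1265 and 714 with 50 reads in both libraries, 6827 and 8131 at 2-fold, 1437 and 2414 at 8-fold, and 1560 and 1911 with 5 CPM added in place of 1. The other alternatives kept both numbers within 1.5 times, and the read minimum in both libraries was the only alternative over all gene models that made the embryo proper side the larger. At 200 reads, 5337 gene models differed by under 2-fold. The median log2 ratio was -0.19 with DESeq2 size factors, -0.048 with upper-quartile scaling, -0.41 with unscaled totals, -0.34 with totals without the 50 most-read gene models, -0.18 at 20 reads and -0.036 at 200 reads, and the direction of a smaller ratio depends on that choice. Gene models with 0 reads in the seed coat parenchyma numbered 1167 at 20 reads and 241 at 200, and with 0 reads in the embryo proper 2895 and 679. The embryo proper-high share of embryo proper reads was 25.7% with unscaled totals, 60.5% at 2-fold, 16.5% at 8-fold and 26.9% without its 2 most-read gene models. The seed coat-high share of seed coat reads was 34.0%, 44.3%, 23.7% and 29.2% in the same order, so the near-equal shares of the reported settings were lost. Without the 2 most-read, the suspensor shares were 22.3% (embryo proper-high) and 4.47% (seed coat-high). No named gene model changed direction, as their large ratios required. Depth limits the gene models of few reads, and with 1 library for each tissue the variation between seeds was not measured.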
